A study of Mus musculus with 24 samples.

Results

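MITF, the lineage transcription factor of pigment cells, was removed from B16-F10 mouse melanoma cells in which its relatives TFEB and TFE3 were both present, and the messenger RNA of the MITF KO line was set against that of the parental line. The comparison took the 3 libraries labelled Mitf-KO and the 3 libraries labelled WT, which are 6 of the 24 libraries of the series, and covered all 12010 genes of the table. B16-F10 is a melanoma line from C57BL/6 mice, and both lines carry a luciferase reporter and were grown alike in DMEM with serum. The KO line was made earlier and bears a frameshift in Mitf, and from their protein blots the authors allow for a small amount of truncated MITF in it. Per the labels the KO line was cloned, and clonal differences cannot be told apart here from the loss of MITF. The other 6 lines lack TFE3 (TFE3 KO), TFEB (TFEB KO) or both (TFEB/TFE3 DKO), or lack MITF as well (TKO, MITF/TFEB DKO and MITF/TFE3 DKO), and they enter only where the loss of MITF is compared between backgrounds.

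MITF, TFEB and TFE3 are basic helix-loop-helix leucine zipper proteins that bind as dimers to E-box letters such as CACGTG and CATGTG. MITF drives the enzymes and structural proteins of the melanosome and is tied to the proliferation and survival of melanocytes, whereas TFEB and TFE3 are best known for inducing lysosomal and autophagy genes when mTORC1 activity is low. A second system that the comparison bears on is the interferon response. Type I interferon binds the IFNAR1/IFNAR2 receptor, the kinases JAK1 and TYK2 pass the signal on, and a complex that holds STAT2 and IRF9 enters the nucleus and binds the interferon-stimulated response element, whose core is a pair of GAAA words with a short gap. Its target genes encode antiviral effectors, sensors of foreign nucleic acid and the machinery that loads peptides onto class I molecules.

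The values are read counts scaled to library size with TMM factors (CPM), from libraries that prime on the poly(A) tail and read only the 3′ end. The 3 parental libraries held 22707913 to 23635288 reads on genes and the 3 MITF KO libraries 18300902 to 25067748, so that 3 reads, the level taken as a floor, correspond to 0.120 to 0.163 CPM. No source says whether the 3 libraries of a line came from separate cultures, so that p-values measure only the spread between these libraries, which may be technical. All 8 melanocyte markers were present, and summed to 26020.2 to 26922 CPM in parental and 37658 to 39704 CPM in MITF KO libraries. Dct made up most of these sums, with up to 29472 CPM in an MITF KO library. The markers changed in both directions, as given below, so that the sum does not speak for each of them. Of the 10 leukocyte markers none was among the genes analysed here.

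The transcripts of all 3 family members rose in the MITF KO. Mitf had 763, 768 and 797 CPM in parental and 1364, 1470.5 and 1358 CPM in MITF KO libraries, a log2 fold change of 0.85 ± 0.09 (SE; adjusted p = 1.98e-07). Values in parentheses after a gene are from here on its log2 fold change (MITF KO minus parental, on log2(CPM + 1)) with the SE and the adjusted p of limma, over 3 libraries a line. Tfeb had 8.197, 7.87 and 10.3 CPM in the parental cells against 15.5, 22.7 and 16.8 CPM in the MITF KO (0.97 ± 0.18, adjusted p = 1.71e-04), and Tfe3 had 35.4, 38.4 and 37.4 CPM in the parental cells against 51.3, 54.2 and 49.5 CPM in the MITF KO (0.47 ± 0.16, adjusted p = 0.0221). The libraries of both lines did not overlap for any of the 3 genes, but the call for Tfe3 was lost without parental replicate 1 (adjusted p = 0.0675) or MITF KO replicate 2 (adjusted p = 0.0713). Counts of reads from the 3′ end of Mitf do not show the frameshift and so do not check the label of the KO. Tfec, the remaining member, was not among the genes analysed here.

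Against the parental cells, 395 genes (3.29% of all tested) were upregulated and 359 (2.99%) downregulated with a log2 fold change past 1 in size and p under 0.05 before adjustment, which the study used to define differentially expressed genes (DEGs), 6.28% in both directions. Of these, 395 and 356 also had a Benjamini-Hochberg adjusted p under 0.05 in limma. At that adjusted threshold and any fold, 2409 genes (20.1%) rose and 2132 (17.8%) fell, 37.8% in all, and these are the genes of which "rose" and "fell" are written here. The falls were larger than the rises: 74 downregulated but only 11 upregulated genes passed a log2 fold change of 3, and the medians were -1.56 and 1.30. With genes at 0 reads in a line placed at the floor, these medians were -1.56 and 1.29. This can move a median little, since only 28 of the downregulated and 12 of the upregulated genes had 0 reads in a line. Adding 1 CPM before the log understates the change of low genes in either direction. The upregulated genes had a median of 3.23 CPM in the parental cells, against 23.8 CPM for all genes. All 754 DEGs had libraries that did not overlap between the lines, as had 27.1% of all genes in the upward and 27.0% in the downward direction. The DEGs were called on these same libraries, so that this is no separate check of the calls. The plot of level against change sets the interferon genes apart by colour.

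**Figure D1:**
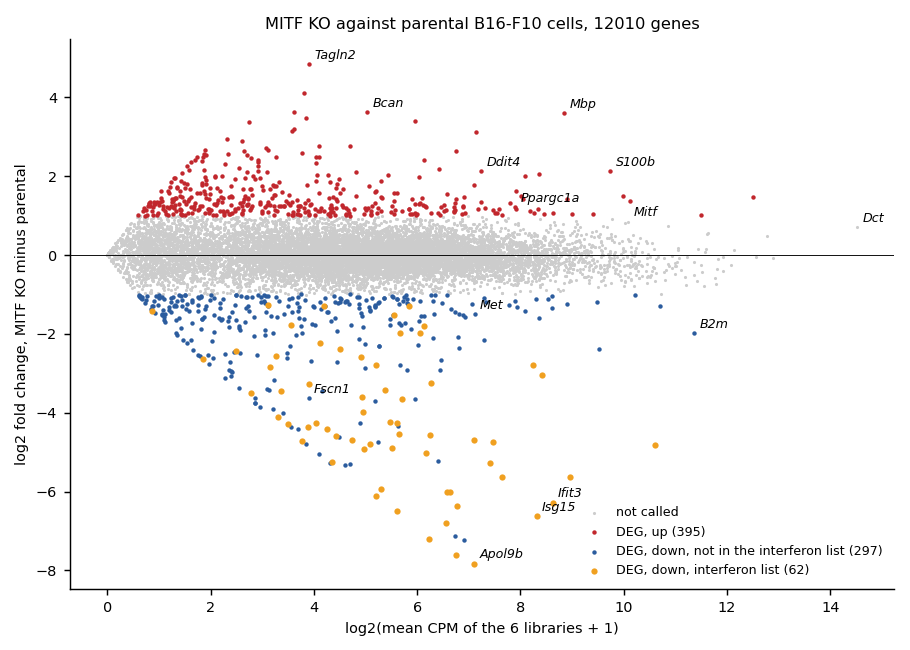
Log2 fold change (MITF KO minus parental, log2(CPM + 1)) against the log2 mean CPM of the 6 libraries for 12010 genes, with upregulated DEGs in red, downregulated DEGs in blue and downregulated DEGs of the interferon list in orange. Orange points fill much of the range below -4, where Isg15, Ifit3 and Apol9b are marked, whereas Tagln2, Mbp and Bcan stand at the top.

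Interferon-induced genes fell together in the MITF KO and were among the largest falls. Of 86 interferon genes in the table, 69 fell (80.2%), 2 rose and 15 did not pass the test, where 17.8% of all genes fell. Among them 62 were downregulated DEGs, as were 2.99% of all genes, and the median log2 fold change was -3.15 against 0.00059 for all genes. Summed over the list, the parental libraries had 12364 to 12763 CPM and the MITF KO libraries 1278 to 1343 CPM. Without each library in turn, 68 to 69 of the 86 genes fell. Of the 57 members whose 3′ ends share no sequence with other genes, 43 fell, with a median of -2.55. No gene for an interferon itself was among the genes analysed here, so that the ligand could not be followed. Fewer cells with the response and less RNA in each cell cannot be told apart in these bulk libraries.

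Among the effectors, Isg15 (ENSMUSG00000035692 on chr4:156283883-156285303, minus strand of mm39), a ubiquitin-like protein that is attached to others in infected cells, had 528, 553 and 804 CPM in parental and 6.07, 5.101 and 4.74 CPM in MITF KO libraries. Its parental values spread from 528 to 804 CPM, and all of them were far above the MITF KO libraries (-6.62 ± 0.26, adjusted p = 9.60e-16). Ifit3 (chr19:34560899-34566443, plus strand), a tetratricopeptide protein that binds viral RNA complexes, had 769, 796 and 766 CPM in the parental cells against 8.85, 8.84 and 9.21 CPM in the MITF KO, 86.7-fold lower with little spread in either line (-6.29 ± 0.08, adjusted p = 9.82e-25). Usp18, the protease that removes ISG15 and dampens receptor signalling, went from 185 ± 1.34 to 0.685 ± 0.265 CPM (SD, n = 3), and Rtp4, a chaperone of receptors, from 214 ± 19.01 to 1.62 ± 0.324 CPM. Rsad2 (viperin) had 981, 966 and 989.6 CPM in the parental cells against 16.1, 16.7 and 23.97 CPM in the MITF KO. Ifit1, a relative of Ifit3, had 379.8, 358 and 439.8 CPM in the parental cells against 6.12, 6.43 and 8.34 CPM in the MITF KO. Rsad2, Ifit1 and the signalling and sensor genes that follow were chosen after their values were seen. Apol9b, of the apolipoprotein L family, had 268, 291 and 256 CPM in the parental cells against 0, 0.482 and 0.163 CPM in the MITF KO, and it shares 39.9% of its 3′-end 50-mers with other loci, and its reads could be split with a copy.

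Transcription factors of the signalling chain fell, and the receptor genes did not pass the test. Stat2 had 27.4, 26.3 and 29.1 CPM in the parental cells against 5.37, 4.900 and 4.904 CPM in the MITF KO (-2.24 ± 0.10, adjusted p = 2.04e-14), and Irf9, its DNA-binding partner, had 134, 157 and 144 CPM in the parental cells against 5.602, 5.54 and 4.47 CPM in the MITF KO (-4.56 ± 0.11, adjusted p = 9.62e-20). Ifnar1 had 25.1, 21.4 and 20.8 CPM in the parental cells against 18.6, 17.6 and 19.7 CPM in the MITF KO (-0.25 ± 0.13, adjusted p = 0.125), and Ifnar2 had 42.2, 38.3 and 44.1 CPM in the parental cells against 38.7, 40.8 and 43.5 CPM in the MITF KO (-0.02 ± 0.08, adjusted p = 0.8899). Jak1, the kinase that sits on IFNAR2, rose from 241 ± 16.2 to 345 ± 7.57 CPM (0.52 ± 0.10, adjusted p = 1.89e-04). Irf7, which amplifies the response, was low in the parental cells, at 1.51, 1.55 and 1.93 CPM, and had 0 reads in all 3 MITF KO libraries, at least 10.2-fold lower when the floor of 3 reads per library is set in its place.

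Sensors of nucleic acid fell by different amounts. The RNA sensors Ifih1 (MDA5) and Ddx58 (RIG-I) fell from 87.7 ± 1.45 to 2.07 ± 0.962 CPM (-4.90 ± 0.16, adjusted p = 4.04e-17) and from 263 ± 6.46 to 9.28 ± 1.52 CPM (-4.69 ± 0.09, adjusted p = 9.73e-22). The DNA sensor Cgas and its partner Sting1 fell by less. Cgas went from 47.2 ± 2.002 to 26.5 ± 2.22 CPM (-0.82 ± 0.10, adjusted p = 8.18e-07), and Sting1 had 51.5, 57.5 and 40.9 CPM in the parental cells against 30.4, 30.8 and 30.3 CPM in the MITF KO (-0.68 ± 0.15, adjusted p = 0.00106). Mavs, the adaptor below the RNA sensors, and Irf3, the factor both pathways activate, had log2 fold changes of -0.14 (adjusted p = 0.369) and 0.02 (adjusted p = 0.9303) and did not pass. Outside the list, Ifi203, which encodes an interferon-inducible DNA-binding protein, had 233, 244 and 232 CPM in the parental cells against 0.471, 0.843 and 0.436 CPM in the MITF KO. Mndal, of the same gene cluster on chromosome 1, had 202, 217 and 210.3 CPM in the parental cells against 1.04, 0.643 and 0 CPM in the MITF KO. Ifi204 of that cluster had 37.9, 39.2 and 35.8 CPM and then 0 reads in all 3 MITF KO libraries.

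Chemokines that recruit T cells fell as well. Cxcl10 had 55.2, 58.5 and 64.7 CPM in parental and 1.37, 0.402 and 1.36 CPM in MITF KO libraries (-4.93 ± 0.19, adjusted p = 4.28e-16), and no MITF KO library reached 2 CPM. Ccl5 had 94.7, 102 and 96.95 CPM in the parental cells against 13.3, 11.8 and 11.3 CPM in the MITF KO (-2.92 ± 0.09, adjusted p = 8.79e-18). Lgals9, a galectin that binds TIM-3, fell from 163 ± 4.31 to 3.43 ± 0.267 CPM, by 47.6-fold. Of the whole list of 42 cytokines, chemokines and receptors, 10 rose and 10 fell (23.8% each), with a median of -0.02. Of all genes 20.1% rose and 17.8% fell.

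Of 15 genes of class I antigen presentation, 13 fell (86.7%) and none rose, and 12 were downregulated DEGs, with a median of -1.43. Over all genes 17.8% fell and 2.99% were downregulated DEGs. B2m, Tapbp and Psmb9 were chosen after their values were seen. B2m, the light chain of all class I molecules, had 4335, 4507 and 3702 CPM in parental and 1075, 1072 and 1019.6 CPM in MITF KO libraries, a 3.96-fold lower mean (-1.98 ± 0.13, adjusted p = 1.15e-11). H2-D1, a classical heavy chain, had 145, 147 and 164 CPM in the parental cells against 17.3, 16.99 and 24.5 CPM in the MITF KO (-2.91 ± 0.18, adjusted p = 5.50e-12), although 13.4% of its 3′-end 50-mers are shared with other genes. Tap1, which pumps peptides into the endoplasmic reticulum, had 21.7, 20.5 and 21.9 CPM in the parental cells against 0.0471, 0.161 and 0.0545 CPM in the MITF KO (-4.36 ± 0.17, adjusted p = 1.04e-15), and Nlrc5, the factor that switches on class I genes, had 7.51, 7.87 and 6.56 CPM in the parental cells against 0.518, 0.562 and 0.272 CPM in the MITF KO (-2.52 ± 0.13, adjusted p = 3.12e-13). Tapbp (tapasin) fell from 178 ± 6.77 to 41.8 ± 6.21 CPM and Psmb9, a subunit of the immunoproteasome, from 4.03 ± 1.13 to 0.108 ± 0.0936 CPM. Tap2 and H2-T22, under 1 CPM in every library, were the 2 members that did not pass. The list summed to 4366 to 5152 CPM in parental and 1198 to 1251 CPM in MITF KO libraries.

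Not every interferon gene followed. Trim14, an adaptor on mitochondria, rose from 7.81 ± 1.999 to 16.7 ± 1.92 CPM (1.02 ± 0.17, adjusted p = 4.81e-05), and Ifi30, a thiol reductase of lysosomes, rose from 16.1 ± 2.64 to 23.8 ± 1.44 CPM (0.55 ± 0.14, adjusted p = 0.00356). Ifit2, which lies beside Ifit3 and Ifit1 on chromosome 19, had 22.5, 23.01 and 20.5 CPM in the parental cells against 18.3, 20.2 and 15.4 CPM in the MITF KO and did not pass (-0.28 ± 0.15, adjusted p = 0.153). The other 14 that did not pass were Ifit1bl1, Irf2, Irf3, Irf5, Ly6e, Trafd1, Lap3, Tor1b, Nub1, Elf1, Ripk2, Cd47, Ccrl2 and Mavs.

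In the promoter table of RefSeq (GRCm38.p6, 250 bases before to 50 after a transcript start), GAAA repeated after any 2 bases, on either strand, occurred in 29 of the 60 promoters (48.3%) of downregulated DEGs in the interferon list. It occurred in 34 of the 85 promoters (40.0%) of the whole interferon list, whether or not the gene fell. The list was made of interferon genes, and a tie between these letters and the fall was not tested. The letters occurred in 11.3% of the promoters of other downregulated DEGs, which include interferon-induced genes outside the list, such as Ifi203. Of the promoters of upregulated DEGs 1.61% held them, of those of genes not called 2.50%, and of all 32851 promoters 3.44%. This search was added after the values were seen, and a match is a description of letters and not of a bound site. The promoters of Isg15 (chr4:156200769-156201068, minus strand) and Ifit3 (chr19:34583279-34583578, plus strand) are shown because these are among the largest falls, with the matches in capitals, on the strand of the gene.
Isg15: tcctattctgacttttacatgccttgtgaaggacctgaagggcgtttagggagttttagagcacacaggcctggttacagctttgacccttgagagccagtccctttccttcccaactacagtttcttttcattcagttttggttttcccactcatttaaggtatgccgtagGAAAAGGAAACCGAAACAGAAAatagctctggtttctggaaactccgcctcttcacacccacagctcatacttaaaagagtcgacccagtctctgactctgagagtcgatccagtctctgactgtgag
Ifit3: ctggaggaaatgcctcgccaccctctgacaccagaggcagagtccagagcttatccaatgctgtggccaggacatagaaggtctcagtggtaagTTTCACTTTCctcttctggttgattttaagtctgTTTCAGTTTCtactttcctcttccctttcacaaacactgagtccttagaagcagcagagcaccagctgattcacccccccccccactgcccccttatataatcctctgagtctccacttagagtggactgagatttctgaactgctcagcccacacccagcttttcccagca
The matches of Isg15 overlap each other and begin 78, 72 and 66 bases upstream of the start, and those of Ifit3 begin 156 and 122 bases upstream and read on the other strand. The E-box CACGTG occurred in 0 of the 60 promoters of downregulated interferon DEGs, 5.56% of those of all downregulated DEGs, 9.66% of those of upregulated DEGs and 10.2% of those of genes not called, and the longer TCACGTG, which holds CACGTG, in 3.44%, 4.83% and 6.30% of the last 3 groups. CATGTG occurred in 11 of the 60 promoters (18.3%) of downregulated interferon DEGs, and in 10.1%, 7.82% and 8.36% of the same 3 further groups. Only bases near a start were searched, so that missing letters do not speak to binding elsewhere. The paper reports that MITF family members bind many genes of the interferon alpha set and may regulate them directly.

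**Figure D2:**
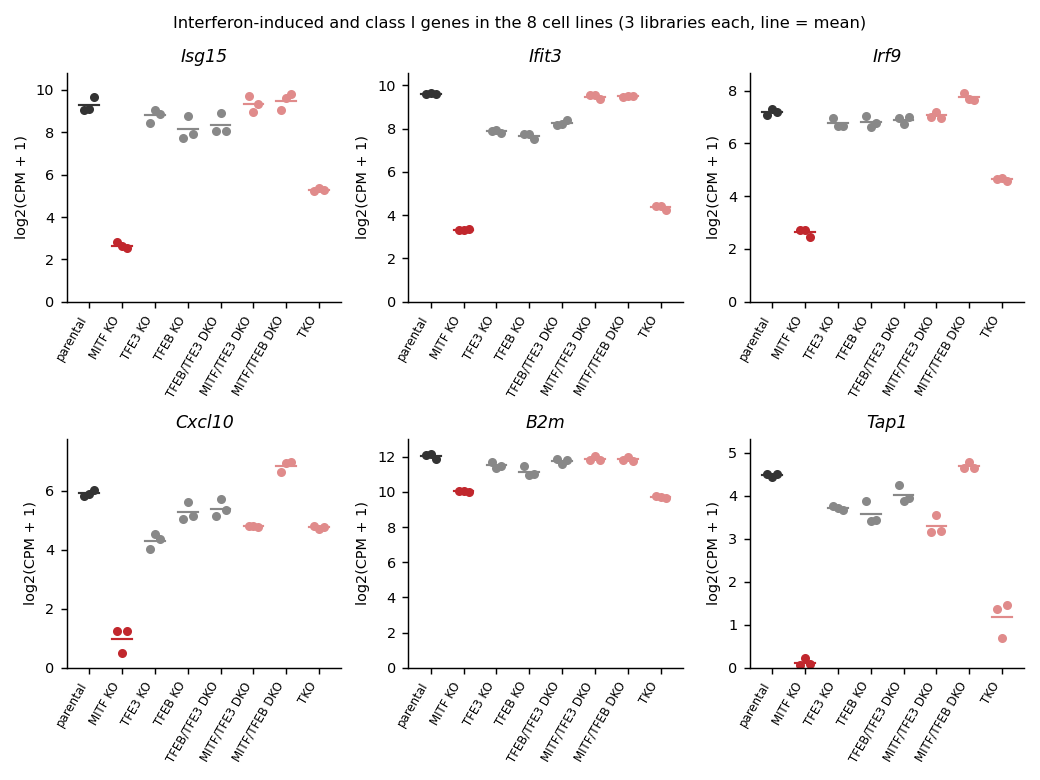
Log2(CPM + 1) of Isg15, Ifit3, Irf9, Cxcl10, B2m and Tap1 in the 3 libraries of each of the 8 cell lines, with a bar at the mean. Parental libraries are dark, MITF KO libraries red, other lines without MITF pink and other lines with MITF grey. The MITF KO and TKO libraries lie below all others for Isg15, Ifit3, Irf9, B2m and Tap1, and for Cxcl10 only the MITF KO libraries do.

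The interferon genes did not follow MITF through the other lines. Among lines that also lack MITF, the MITF/TFE3 DKO had Isg15 at 849.8, 504 and 649.7 CPM, the MITF/TFEB DKO at 527, 799 and 899.9 CPM and the TKO at 35.9, 39.7 and 37.3 CPM. With MITF present, the TFE3 KO had it at 349.7, 531 and 471 CPM, the TFEB KO at 211, 437 and 242 CPM and the TFEB/TFE3 DKO at 268, 480.0 and 268 CPM. Summed over the list, the MITF/TFE3 DKO reached 10788 to 11746 CPM, the MITF/TFEB DKO 14726 to 15231 CPM and the TKO 2359 to 2487 CPM, against 7457 to 9360.5 CPM over the 3 lines that lack only TFE3, TFEB or both. Of the 4 lines without MITF, the MITF KO and TKO lay below all lines with MITF in this sum and the other 2 did not, and the MITF KO was the lowest.

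The loss of MITF was tested within each background. When MITF was lost from cells without TFEB and TFE3 (TKO against TFEB/TFE3 DKO), 62 of the 86 genes fell and 10 rose (median -1.57), where 27.7% and 30.1% of all genes did. When it was lost from cells without TFE3 (MITF/TFE3 DKO against TFE3 KO), 53 rose and 5 fell (median 0.50), where 22.8% and 22.2% of all genes did. When it was lost from cells without TFEB (MITF/TFEB DKO against TFEB KO), 72 rose and 4 fell (median 1.05), where 29.2% and 27.3% did. The fall in the MITF KO was larger than that in the TKO for 52 of the 86 genes and smaller for none at a difference of at least 1 (log2) and an adjusted p under 0.05 of the interaction in limma, a call made in these directions for 8.09% and 6.51% of all genes. The class I list had medians of -1.43 in the MITF KO, -0.18 in the TKO, 0.26 without TFE3 and 1.12 without TFEB. These 3 further comparisons share no library with the MITF KO and parental lines, and their difference from the MITF KO was tested only for the TKO comparison.

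Pigment genes changed in both directions when MITF alone was lost, mostly by under 2-fold. Of 17 melanin and melanosome genes, 8 rose (47.1%), 3 fell (17.6%) and 6 did not pass, and 1 was a DEG, with a median of 0.19. Over all genes 20.1% rose and 17.8% fell. Dct, which converts dopachrome on the way to eumelanin, had 18263, 17963 and 17027 CPM in parental and 28565, 29029 and 29472 CPM in MITF KO libraries, an increase of 1.63-fold (0.71 ± 0.11, adjusted p = 2.76e-05), and the other tyrosinase relative Tyrp1 had 2698, 2506 and 2509 CPM in the parental cells against 3834, 3400.4 and 4145 CPM in the MITF KO (0.56 ± 0.10, adjusted p = 1.11e-04). Dct has the highest CPM in every library, so that quantile normalization sets its values equal by construction and gives no test of its change. Tyr, the enzyme that starts melanin synthesis, had 127, 133 and 134 CPM in the parental cells against 102, 118 and 113 CPM in the MITF KO, libraries that did not overlap but a change that did not pass (-0.24 ± 0.15, adjusted p = 0.202), and Pmel, which forms the fibrils of the melanosome, had 3634, 3588 and 4092 CPM in the parental cells against 3487, 3171 and 3921 CPM in the MITF KO (-0.10 ± 0.11, adjusted p = 0.509).

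The falls in that list were those of Gpr143, Mlana and Slc7a11. Gpr143, a receptor of the melanosome membrane, had 18.2, 17.6 and 19.1 CPM in parental and 6.45, 10.6 and 6.81 CPM in MITF KO libraries (-1.14 ± 0.15, adjusted p = 2.51e-06), and Mlana, a melanosome protein used as a melanoma marker, had 760.3, 784 and 851 CPM in the parental cells against 513, 437 and 516 CPM in the MITF KO (-0.71 ± 0.11, adjusted p = 1.36e-05). Mc1r, the receptor for melanocortin, rose from 301 ± 5.102 to 372 ± 13.5 CPM (0.31 ± 0.09, adjusted p = 0.00868) and Trpm1, a cation channel whose intron holds miR-211, rose from 19.6 ± 3.18 to 32.5 ± 1.86 CPM (0.71 ± 0.20, adjusted p = 0.00632). Slc45a2, a melanosome transporter, had 433, 417 and 378 CPM in the parental cells against 354, 336 and 361 CPM in the MITF KO and an adjusted p of 0.0505. Of 29 genes of melanosome transport, 4 rose (13.8%) and 3 fell (10.3%), where 20.1% and 17.8% of all genes did. Among them Rab17, a small GTPase of melanosome release, rose from 39.4 ± 3.83 to 96.1 ± 6.13 CPM (1.27 ± 0.12, adjusted p = 1.19e-08). Sytl2, an effector of RAB27A, had 41.3, 38.5 and 39.5 CPM in the parental cells against 9.09, 12.4 and 11.6 CPM in the MITF KO (-1.77 ± 0.17, adjusted p = 1.18e-08). The lineage factor Sox10 had 708, 762 and 723 CPM in the parental cells against 779, 787 and 796 CPM in the MITF KO and did not pass (adjusted p = 0.403). Its partner Pax3 had 241, 233 and 242 CPM in the parental cells against 292, 243 and 272 CPM in the MITF KO and did not pass either (adjusted p = 0.0879). Rab38, a GTPase that carries enzymes to melanosomes, ranged from 342 to 551 CPM in the parental cells and from 205 to 311 CPM in the KO (adjusted p = 0.235).

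Pigment genes fell in larger numbers where TFEB was absent too. For Tyr the TFEB/TFE3 DKO gave 154, 147 and 124 CPM but the TKO 8.78, 7.66 and 8.600 CPM, a log2 fold change of -3.93 for the loss of MITF. The TFEB KO gave 131, 94.3 and 94.3 CPM but the MITF/TFEB DKO 12.5, 11.8 and 14.1 CPM (-2.95). The TFE3 KO gave 93.2, 116 and 145 CPM and the MITF/TFE3 DKO 107, 81.6 and 115 CPM (-0.21). Over the list of 17, the median was -1.93 in the TKO, with 13 genes falling, -0.13 without TFE3 and -1.16 without TFEB alone. The interaction called 13 of the 17 as higher in the MITF KO comparison than in the TKO comparison, and none as lower. It made these calls for 6.51% and 8.09% of all genes. The plot of the 4 backgrounds sets the estimates side by side.

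**Figure D3:**
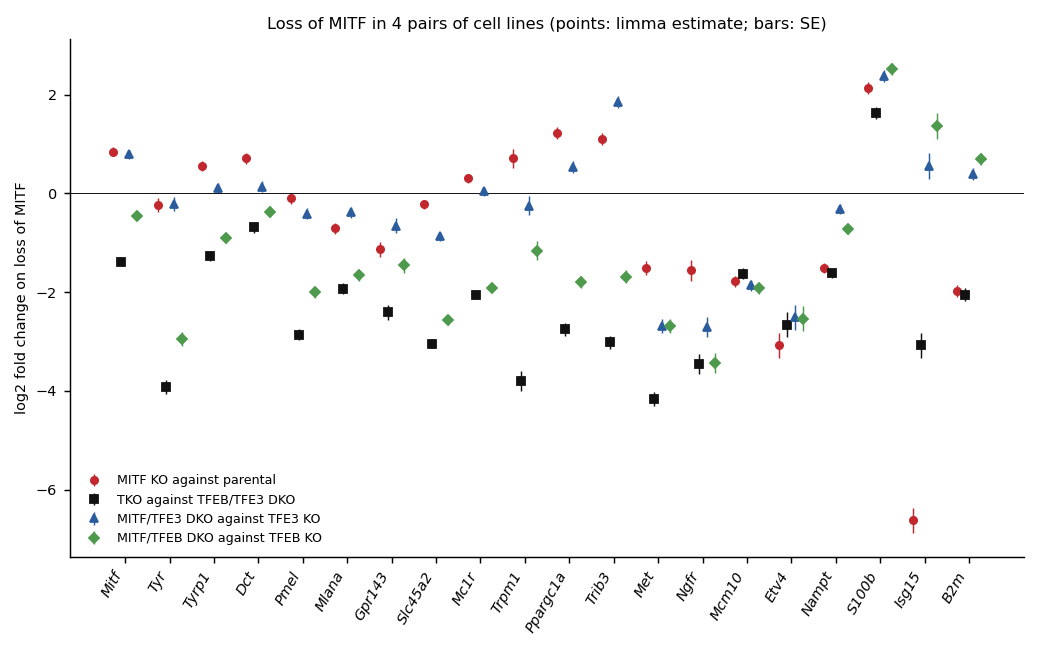
Log2 fold change on loss of MITF (points, with SE as bars) for 20 genes in 4 pairs of cell lines: MITF KO against parental (red), TKO against TFEB/TFE3 DKO (black), MITF/TFE3 DKO against TFE3 KO (blue) and MITF/TFEB DKO against TFEB KO (green). From Tyr to Trpm1 each red point lies above the black one of the same gene, whereas Met, Ngfr, Mcm10 and Etv4 lie below 0 in all 4 pairs.

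Several growth-factor receptors and targets of the MAPK pathway fell. Met, the receptor of hepatocyte growth factor, had 212, 206 and 191 CPM in parental and 69.4, 79.4 and 64.7 CPM in MITF KO libraries (-1.50 ± 0.14, adjusted p = 9.05e-09), and Ngfr, the low-affinity neurotrophin receptor, 14.2, 13.4 and 12.8 CPM in the parental cells against 3.15, 5.14 and 3.596 CPM in the MITF KO (-1.56 ± 0.20, adjusted p = 2.22e-06). Axl, a receptor linked to invasive melanoma, fell from 32.8 ± 5.83 to 13.8 ± 0.152 CPM (-1.18 ± 0.12, adjusted p = 7.82e-08). Ntrk3, the receptor of neurotrophin-3, moved the other way, with 0.129, 0.227 and 0.0899 CPM in the parental cells against 8.47, 7.35 and 7.85 CPM in the MITF KO (2.95 ± 0.16, adjusted p = 4.25e-13), from near the floor in the parental cells. Kit fell (-0.64 ± 0.20, adjusted p = 0.0134) but stayed under 1 CPM in all 6 libraries. Its call was lost in some alternatives, such as without parental replicate 3 (adjusted p = 0.0771). Of 21 receptor genes, 6 rose (28.6%) and 7 fell (33.3%), where 20.1% and 17.8% of all genes did, so that the list had no common direction.

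Of 36 genes of MAPK output and feedback, 14 fell (38.9%) and 4 rose (11.1%), where 17.8% and 20.1% of all genes did (median -0.26). The list held 4 downregulated DEGs and 1 upregulated DEG, and its log2 fold changes ran from -3.18 to 1.63. Etv5, an ETS factor induced by ERK, had 16.4, 16.2 and 15.2 CPM in the parental cells against 0.3295, 1.12 and 1.31 CPM in the MITF KO (-3.18 ± 0.20, adjusted p = 9.51e-12). Its relative Etv4 had 7.895, 10.1 and 7.15 CPM in the parental cells against 0.188, 0.1205 and 0 CPM in the MITF KO (-3.08 ± 0.26, adjusted p = 1.43e-09). Dusp6, the phosphatase that feeds back on ERK, had 116, 114 and 151 CPM in the parental cells against 31.97, 20.5 and 34.5 CPM in the MITF KO (-2.11 ± 0.23, adjusted p = 1.36e-07). No library of one line reached the values of the other for these 3 genes, and Etv4 had at most 4 reads in an MITF KO library. Of 31 WNT pathway genes, 8 fell (25.8%) and 2 rose, where 17.8% of all genes fell. Among them Tcf7l1, a repressor of WNT targets, fell from 50.5 ± 6.98 to 20.1 ± 0.6395 CPM (-1.28 ± 0.14, adjusted p = 2.51e-07). Axin2, a WNT target, fell from 9.45 ± 0.988 to 5.95 ± 0.4803 CPM (-0.59 ± 0.16, adjusted p = 0.00567).

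Genes of DNA replication and mitosis fell by small amounts, mostly under 2-fold. Of 57 replication genes 30 fell (52.6%) and 2 rose (median -0.34), where 17.8% of all genes fell. For 54 mitotic genes, 25 fell (46.3%) and 1 rose (median -0.33). Mcm10, which recruits the polymerase to origins, was the DEG among them, with 79.5, 82.9 and 75.2 CPM in the parental cells against 22.5, 19.7 and 25.01 CPM in the MITF KO (-1.78 ± 0.11, adjusted p = 4.54e-12), and Gins1, of the replicative helicase, fell from 20.3 ± 0.3195 to 9.91 ± 0.9299 CPM (-0.97 ± 0.14, adjusted p = 9.08e-06). Cenpa, the histone of centromeres, fell from 131 ± 18.2 to 66.8 ± 9.87 CPM (-0.97 ± 0.19, adjusted p = 3.51e-04). Cdk1 had 529, 539 and 619 CPM in the parental cells against 381, 244 and 423 CPM in the MITF KO, and its call was lost without MITF KO replicate 2, the lowest library. Of 41 homologous recombination and Fanconi genes 9 fell (21.95%) and 2 rose (4.88%), where 17.8% and 20.1% of all genes did. The share that fell was thus near that of all genes, and none of the list was a DEG. The D cyclins diverged: Ccnd1 had 417, 409 and 461 CPM in the parental cells against 196, 187 and 209 CPM in the MITF KO (-1.11 ± 0.10, adjusted p = 2.71e-09) and Ccnd2 1954, 1927 and 1889 CPM in the parental cells against 3712, 4035 and 3825 CPM in the MITF KO (1.003 ± 0.09, adjusted p = 6.63e-09). Cdk2, whose gene neighbours Pmel, had 169.6, 169 and 221 CPM in the parental cells against 139, 113 and 144 CPM in the MITF KO (adjusted p = 0.0474). Its call was lost in every fit without 1 library (adjusted p = 0.0547 to 0.204), and also with quantile normalization and without the variance trend of limma.

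Subunits of the protein synthesis and degradation machinery fell as well, with a spread that depended on the library. Of 82 cytosolic ribosomal protein genes 58 fell (70.7%) and none rose (median -0.47), where 17.8% of all genes fell. For 32 proteasome genes, 19 fell (59.4%) and none rose (median -0.35). Rpl7a had 412, 382 and 665 CPM in the parental cells against 199, 88.6 and 215 CPM in the MITF KO, highest in parental replicate 3 and lowest in MITF KO replicate 2, and its call was lost without the latter (adjusted p = 0.0668). Gapdh, chosen after its values were seen, had the same highest and lowest libraries, with 286, 269 and 489.9 CPM in the parental cells against 165, 85.2 and 175 CPM in the MITF KO. It did not pass the adjusted threshold (-1.31 ± 0.54, adjusted p = 0.0607), but with an unadjusted p of 0.0241 in limma it is counted among the downregulated DEGs. Without each library in turn, 42 to 57 of the 82 ribosomal genes fell, and 81 of the 82 share part of their 3′-end sequence with other genes. Psmb7, a proteasome subunit with no shared 3′ end, had 285, 294 and 371 CPM in the parental cells against 176, 129 and 175 CPM in the MITF KO (-0.98 ± 0.16, adjusted p = 3.38e-05). Of 78 mitochondrial ribosomal genes 28 fell (35.9%) and 3 rose (median -0.20).

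In the lysosomal lists more genes rose than fell. Of 46 lysosomal hydrolase genes 22 rose (47.8%) and 3 fell (median 0.28), where 20.1% of all genes rose. For 29 genes of lysosomal membrane proteins and the proton pump, 12 rose (41.4%) and 2 fell (median 0.27). Hgsnat, which acetylates heparan sulphate for its breakdown, had 110.1, 114 and 97.9 CPM in parental and 409.8, 447 and 442 CPM in MITF KO libraries, 4.04-fold higher (2.01 ± 0.11, adjusted p = 3.50e-13). Ctsf, a cysteine protease, had 0.6903, 0.909 and 0.764 CPM in the parental cells against 4.19, 5.34 and 4.14 CPM in the MITF KO (1.63 ± 0.14, adjusted p = 1.63e-09), and Idua, an iduronidase, rose from 4.59 ± 0.514 to 12.2 ± 0.581 CPM (1.24 ± 0.18, adjusted p = 7.27e-06). Cln3, a lysosomal membrane protein, fell from 10.01 ± 0.766 to 4.45 ± 0.754 CPM (-1.02 ± 0.15, adjusted p = 7.24e-06). Of 46 autophagy genes 14 rose (30.4%) and 2 fell, where 20.1% of all genes rose.

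Inhibitors of mTORC1 were among the rises. Ddit4 (REDD1), which acts through TSC2, had 63.03, 57.4 and 46.8 CPM in parental and 241, 258 and 233 CPM in MITF KO libraries (2.12 ± 0.16, adjusted p = 2.86e-10). Deptor, an inhibitory subunit of the complex, had 201, 206 and 185 CPM in the parental cells against 373, 461 and 418 CPM in the MITF KO (1.07 ± 0.12, adjusted p = 1.55e-07), and Sesn2, a leucine sensor, had 5.18, 7.91 and 4.72 CPM in the parental cells against 9.51, 13.8 and 10.6 CPM in the MITF KO (0.84 ± 0.23, adjusted p = 0.00653). Rragd, a RAG GTPase that brings mTORC1 to the lysosome, rose from 19.9 ± 3.600 to 28.2 ± 1.705 CPM (adjusted p = 0.0202), a call that was lost in 4 of the 6 fits without 1 library (adjusted p = 0.0578 to 0.0908, without parental replicate 1 or 2 or MITF KO replicate 1 or 3), whereas Fnip2 had a log2 fold change of 0.06 (adjusted p = 0.798). Of 35 genes of nutrient sensing 9 rose (25.7%) and 2 fell, where 20.1% of all genes rose.

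Of 44 ATF4 target and amino acid supply genes 24 rose (54.5%) and 1 fell (median 0.28), and 7 were upregulated DEGs. Over all genes 20.1% rose and 3.29% were upregulated DEGs. Aldh1l2, of mitochondrial folate metabolism, had 26.97, 28.4 and 21.7 CPM in the parental cells against 96.1, 108 and 105 CPM in the MITF KO (1.97 ± 0.10, adjusted p = 3.12e-13), and Atf5, a relative of ATF4, had 124, 119.6 and 106 CPM in the parental cells against 341, 419 and 335 CPM in the MITF KO (1.63 ± 0.13, adjusted p = 1.26e-09). Trib3 and Chac1, targets of ATF4 with CHOP, rose from 66.1 ± 7.47 to 143 ± 14.3 CPM (1.10 ± 0.12, adjusted p = 1.91e-07) and from 52.2 ± 2.36 to 122 ± 3.39 CPM (1.21 ± 0.10, adjusted p = 2.79e-09). Herpud1, of endoplasmic reticulum degradation, rose from 102 ± 4.38 to 201 ± 10.1 CPM (0.97 ± 0.08, adjusted p = 6.16e-10), 1 of 8 genes of the unfolded protein response that rose of 25. In the other backgrounds the ATF4 list had a median of -0.74 in the TKO comparison, 0.13 in the pair without TFE3 and -0.60 in the pair without TFEB. By the interaction 21 of the 44 genes were higher and none lower, where 6.51% and 8.09% of all genes were.

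In metabolism, the coactivator Ppargc1a (PGC-1 alpha), a regulator of mitochondrial genes, rose, with 152, 149 and 128 CPM in the parental cells against 344, 343 and 309 CPM in the MITF KO (1.21 ± 0.12, adjusted p = 4.08e-08). Its list of 16 mitochondrial biogenesis regulators did not rise as a whole, with 2 rising (12.5%) and 3 falling (median -0.10). Its relative Pprc1 fell (-0.89 ± 0.14, adjusted p = 2.88e-05). For the respiratory chain and ATP synthase, 29 of 77 genes rose (37.7%) while 1 fell (median 0.22), all of them under 2-fold. Over all genes 20.1% rose and 17.8% fell. Pfkp, a phosphofructokinase of glycolysis, had 30.7, 32.7 and 26.8 CPM in the parental cells against 133, 143 and 142 CPM in the MITF KO (2.18 ± 0.11, adjusted p = 3.00e-13), and Hk2, a hexokinase, fell from 257 ± 9.32 to 182 ± 21.4 CPM (-0.50 ± 0.12, adjusted p = 0.00143). Nampt, the rate-limiting enzyme of NAD salvage, had 117, 120.2 and 117 CPM in the parental cells against 43.2, 36.7 and 43.3 CPM in the MITF KO (-1.51 ± 0.10, adjusted p = 1.34e-11), and Nmnat2, a later enzyme of NAD synthesis, had 4.27, 2.91 and 3.01 CPM in the parental cells against 13.9, 17.9 and 12.5 CPM in the MITF KO (1.84 ± 0.17, adjusted p = 6.13e-09). Of 37 genes of sterol and fatty acid synthesis 14 rose (37.8%) and 2 fell, with Scd1, the stearoyl-CoA desaturase, at 23.8, 24.7 and 24.7 CPM in the parental cells against 20.6, 21.6 and 23.6 CPM in the MITF KO and not passing. Of 53 genes of the NRF2 and glutathione system 11 rose (20.8%) and 18 fell (34.0%), where 20.1% and 17.8% of all genes did. The list held 2 upregulated and 5 downregulated DEGs, with log2 fold changes from -2.30 to 1.32. Osgin1 fell from 62.6 ± 7.66 to 12.2 ± 3.59 CPM (-2.30 ± 0.22, adjusted p = 1.41e-08) and the malic enzyme Me1 from 99.7 ± 2.95 to 33.3 ± 3.74 CPM (-1.56 ± 0.11, adjusted p = 8.12e-11).

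**Figure D4:**
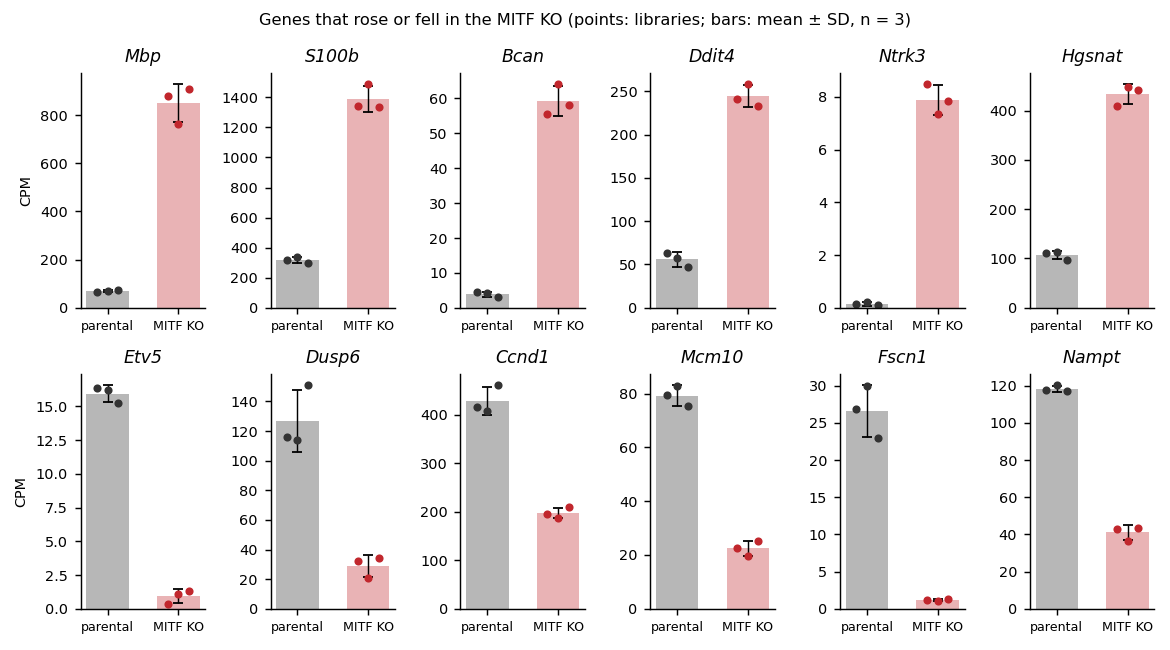
CPM of 12 genes in the 3 parental and 3 MITF KO libraries (points), with the mean as a bar from 0 and the SD as an error bar. Mbp, S100b, Bcan, Ddit4, Ntrk3 and Hgsnat are higher and Etv5, Dusp6, Ccnd1, Mcm10, Fscn1 and Nampt lower in the MITF KO, and no library of one line reaches those of the other.

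The rises past a log2 fold change of 3 went to genes of mixed known functions. Mbp, myelin basic protein, had 66.9, 67.9 and 72.8 CPM in parental and 880.3, 762 and 907 CPM in MITF KO libraries, 12.3-fold higher (3.60 ± 0.17, adjusted p = 5.46e-14). S100b, a calcium-binding protein of glia and melanocytes with a smaller change, had 316, 338 and 295 CPM in the parental cells against 1344, 1486 and 1334 CPM in the MITF KO (2.13 ± 0.12, adjusted p = 2.13e-12), and Bcan, the proteoglycan brevican, had 4.53, 4.14 and 3.15 CPM in the parental cells against 55.6, 64.02 and 58.03 CPM in the MITF KO (3.62 ± 0.19, adjusted p = 3.64e-13). Dbh, which makes noradrenaline, had 0.604, 0 and 0 CPM in the parental cells against 10.5, 12.5 and 10.5 CPM in the MITF KO. Lhfpl4, a partner of GABA receptors, had 1.51, 1.36 and 1.26 CPM in the parental cells against 25.7, 28.7 and 22.4 CPM in the MITF KO. Casq2 and Myom1, of striated muscle, rose from 1.47 ± 0.593 to 21.2 ± 2.33 CPM and from 1.41 ± 0.205 to 20.6 ± 3.43 CPM. Rny3, a small RNA gene, rose from 9.79 ± 1.01 to 113 ± 8.99 CPM, but 83.02% of its 3′-end 50-mers are shared with other genes. Mbp rose in all 4 backgrounds (log2 fold changes of 3.60, 4.24, 6.93 and 3.92) and had 5.37 to 7.83 CPM in the TFE3 KO against 848 to 965 CPM in the MITF/TFE3 DKO.

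Of 72 matrix and protease genes 26 rose (36.1%) and 13 fell (18.1%), with a median of 0.25, where 20.1% and 17.8% of all genes did. For 48 actin and cytoskeletal genes, 21 rose (43.8%) and 9 fell (18.8%), with a median of 0.24. Postn, periostin, had 0.863, 1.32 and 0.584 CPM in the parental cells against 10.3, 10.5 and 9.48 CPM in the MITF KO (2.54 ± 0.21, adjusted p = 1.28e-09), and Col6a3, a collagen VI chain, had 0.216, 0.0455 and 0 CPM in the parental cells against 4.896, 3.98 and 7.57 CPM in the MITF KO (2.54 ± 0.18, adjusted p = 1.11e-10), while Col4a4, a basement membrane chain, fell from 8.72 ± 0.505 to 2.01 ± 0.438 CPM (-1.70 ± 0.18, adjusted p = 9.46e-08). The summed fibroblast markers were higher too, with 11.4 to 14.97 CPM in parental and 35.2 to 44.9 CPM in MITF KO libraries. Of 7 such markers 3 were in the table (Col1a1, Col1a2 and Pdgfrb), and Col3a1, Dcn, Lum and Pdgfra were not among the genes analysed. A single marker reached 39.6 CPM in an MITF KO library, so that a single gene can make up most of the sum. The part of these markers in the result was not tested. Fscn1, the actin-bundling protein fascin, had 26.8, 29.9 and 22.97 CPM in the parental cells against 1.22, 1.04 and 1.36 CPM in the MITF KO (-3.64 ± 0.17, adjusted p = 4.64e-14). Tagln2, an actin-binding protein, had 0 reads in every parental library but 33.8, 25.1 and 24.7 CPM in the MITF KO, at least 204-fold higher. Acta2, a smooth muscle actin, was at 0 reads in each parental library and at 2.495, 2.41 and 1.42 CPM in the MITF KO, and the MITF/TFEB DKO had 205, 159 and 129 CPM. Gjb2, a connexin, fell from 62.97 ± 8.46 to 11.8 ± 0.936 CPM (-2.31 ± 0.17, adjusted p = 1.03e-10), and Pecam1, an adhesion protein of endothelium that was chosen after its values were seen, fell from 8.11 ± 0.437 to 0.2102 ± 0.236 CPM (-2.93 ± 0.20, adjusted p = 3.66e-11); it was the 1 of 4 endothelial markers among the genes analysed here.

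**Figure D5:**
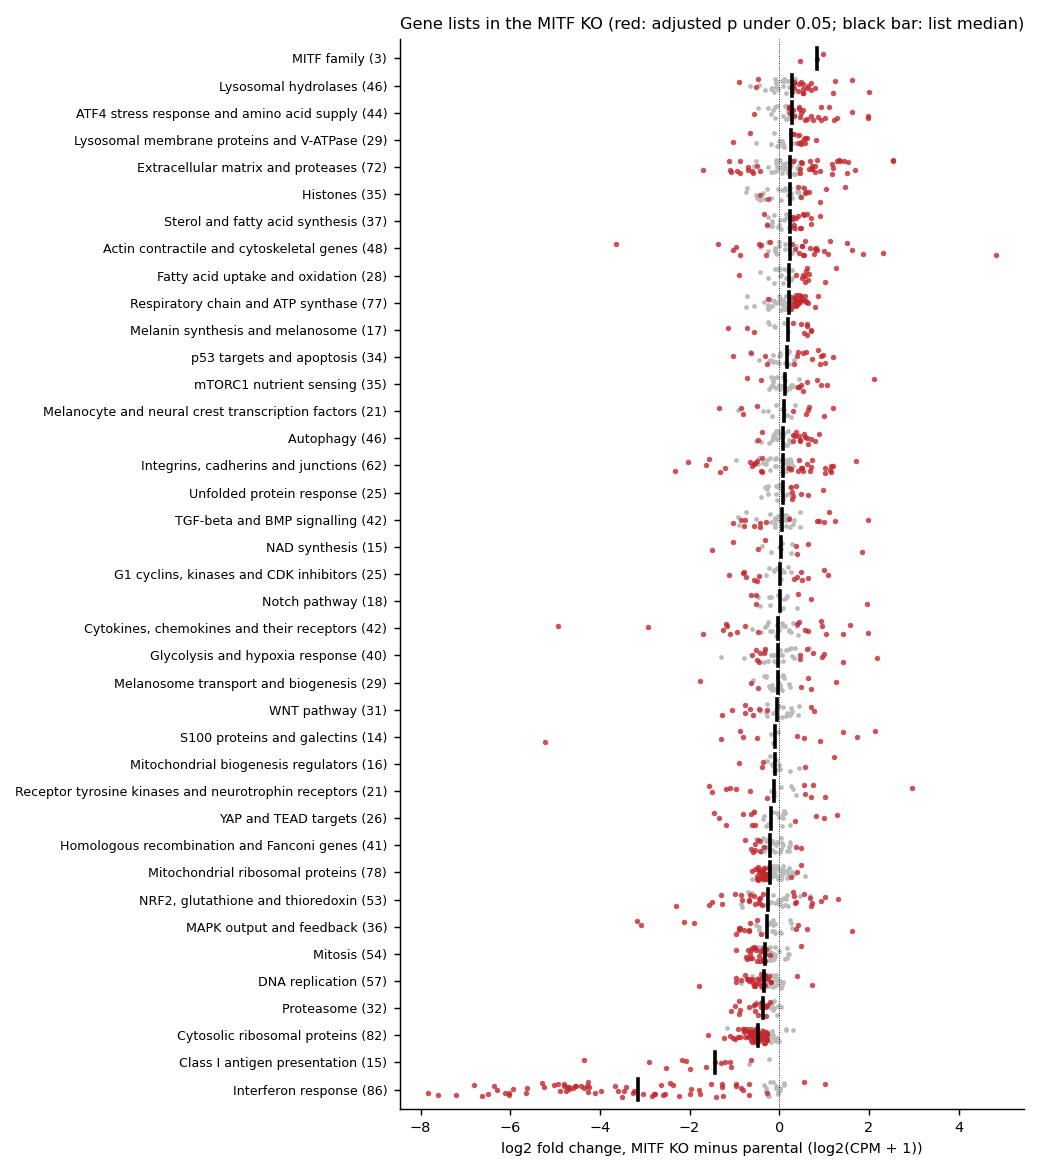
Log2 fold change (MITF KO minus parental) of every gene in 39 gene lists, with genes that passed an adjusted p of 0.05 in red, others in grey and the list median as a black bar, ordered by median. The interferon list and class I list lie lowest, at medians of -3.15 and -1.43, and all other medians except that of the MITF family (0.85) lie between -0.47 and 0.28.

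Some genes were on in one line only, with at most 3 reads in each library of one and at least 5 CPM in each of the other. Tagln2 and Unc13b, a protein of vesicle priming at 5.88, 5.101 and 5.39 CPM against at most 1 read, were on in the MITF KO only. In the other direction 15 genes were off in the MITF KO, of which Apol9a, Ifi44, Oasl2, Oas2, Ifi204, Ddx60, Gm4951 and Oasl1 were the highest in the parental cells. Ifi44 had 153, 138 and 151 CPM and then 0 reads, at least 899.9-fold lower, and the antiviral helicase Ddx60 36.7, 31.01 and 29.4 CPM and then 0 reads, at least 198-fold lower. Oasl2 and Oas2, of the family that makes the activator of RNase L, had 73.8, 69.9 and 71.9 CPM and 42.8, 38.5 and 34.5 CPM, respectively, and then at most 2 reads in a library. The others were Oas1b, Trim34a, Mx1 and Tgtp2, which are interferon-induced too, and Nr5a1, Tuba4a and Nova1, which are not known as such. The 3′ end of Tuba4a overlaps Stk16 on the opposite strand, and the strand setting of the counting is not given, so that reads of these genes cannot be told apart. Nr5a1, a nuclear receptor, had 12.7, 14.5 and 10.5 CPM and then 0 reads, at least 76.8-fold lower, and it was a downregulated DEG in all 4 backgrounds. Nr5a1 was singled out after its values were seen.

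Over all DEGs, the loss of MITF was then followed through the other 3 backgrounds, whose libraries did not choose the DEGs. TFE3 and TFEB were knocked out in the parental and in the MITF KO cells, so that all lines without MITF descend from the same MITF KO line, clonal differences of that line can recur in all 4 pairs, and the pairs are not independent repeats of the loss of MITF. Of the 395 upregulated genes, 218 (55.2%) were also upregulated in the TKO against the TFEB/TFE3 DKO, where they made up 20.4% of the upregulated genes and where 8.89% of all genes were called. Of the 359 downregulated genes, 230 (64.1%) were also downregulated there (27.3% of that comparison's downregulated genes, with 7.02% of all genes called). In the MITF/TFE3 DKO against the TFE3 KO, 201 (50.9%; 31.1% of its upregulated genes) and 100 (27.9%; 31.7% of its downregulated genes) were shared, where 5.38% and 2.62% of all genes were called, and 44 of the downregulated genes went up there. For the loss of MITF from the TFEB KO, 215 (54.4%; 19.2%) and 136 (37.9%; 21.2%) were shared, where 9.32% and 5.35% were called, and 81 of the downregulated genes went up there. In all 4 pairs together 125 genes were upregulated and 78 downregulated.

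The genes downregulated in all 4 pairs did not include an interferon or class I gene. They held the receptors Met and Ngfr, the replication factor Mcm10, the ETS factors Etv1 and Etv4, the WNT factors Tcf7 and Tcf7l1, the adhesion genes Itgb3, Nectin2 and Gjb2, the matrix gene Fbln1, the melanosome transport gene Sytl2, the redox genes Me1, Gsta2 and Gsta4, and Lgals7. Met had log2 fold changes of -1.50 in the MITF KO, -4.17 in the TKO, -2.68 in the pair without TFE3 and -2.69 in the pair without TFEB, and Mcm10 had -1.78, -1.63, -1.86 and -1.92. Among the lists, the genes upregulated in all 4 were the S100 genes S100b, S100a13 and S100a16, Fgfr3, Ctsf, Mxd4, Btg2, Cpt1c, Aldh1l2, Il18, Il13ra1, Mmp15, Cdh19, Myh14, Lmod1, Gfap, Notch1, Ankrd1 and Nmnat2.

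Of the 754 DEGs, 357 (47.3%) differed between the MITF KO comparison and the TKO comparison in the interaction, where 14.6% of all genes were called. Ppargc1a rose by 1.21 in the MITF KO and had -2.76 in the TKO comparison, a difference of 3.97. Trib3, which rose in the MITF KO, fell in the TKO to 13.8, 13.8 and 11.1 CPM (-3.02), the TFEB/TFE3 DKO having 116, 101 and 117 CPM. Mgll, a monoglyceride lipase, fell by less in the MITF KO (-1.78) than in the TKO comparison (-6.18). Gbp2, a guanylate-binding protein induced by interferon, fell to 1.55, 2.13 and 1.798 CPM from 25.5, 24.7 and 28.1 CPM in the MITF KO , whereas the TFEB/TFE3 DKO had it at 13.9, 16.8 and 13.5 CPM and the TKO at 26.2, 29.7 and 25.9 CPM.

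E-box letters near the start could be read for 311 of the 395 upregulated and 279 of the 359 downregulated genes. The promoters of the DEGs with the largest fold changes that hold TCACGTG on either strand, the letters all 3 factors are known to bind, are printed with the matches in capitals, on the strand of the gene and in GRCm38.p6: Fam178b (chr1:36683134-36683433, minus strand), Asb2 (chr12:103355952-103356251, minus strand), Elovl4 (chr9:83806256-83806555, minus strand) and Parp11 (chr6:127453377-127453676, plus strand).
Fam178b: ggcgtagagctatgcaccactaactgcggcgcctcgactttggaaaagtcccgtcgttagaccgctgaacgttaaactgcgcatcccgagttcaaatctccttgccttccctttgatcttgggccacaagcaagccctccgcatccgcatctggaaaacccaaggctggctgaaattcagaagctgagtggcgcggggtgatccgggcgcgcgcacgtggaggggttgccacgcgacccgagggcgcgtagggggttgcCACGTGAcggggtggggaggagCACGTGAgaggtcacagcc
Asb2: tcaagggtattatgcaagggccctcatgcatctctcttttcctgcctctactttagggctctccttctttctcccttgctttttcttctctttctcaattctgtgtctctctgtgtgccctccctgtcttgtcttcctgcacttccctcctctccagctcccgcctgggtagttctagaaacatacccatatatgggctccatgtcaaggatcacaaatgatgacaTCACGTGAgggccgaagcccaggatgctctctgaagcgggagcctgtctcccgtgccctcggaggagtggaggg
Elovl4: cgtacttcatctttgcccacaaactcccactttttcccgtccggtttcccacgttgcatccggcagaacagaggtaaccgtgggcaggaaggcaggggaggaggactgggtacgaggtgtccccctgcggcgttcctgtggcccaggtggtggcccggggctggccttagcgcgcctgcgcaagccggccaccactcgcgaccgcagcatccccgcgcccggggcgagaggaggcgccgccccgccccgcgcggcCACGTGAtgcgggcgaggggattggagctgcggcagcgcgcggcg
Parp11: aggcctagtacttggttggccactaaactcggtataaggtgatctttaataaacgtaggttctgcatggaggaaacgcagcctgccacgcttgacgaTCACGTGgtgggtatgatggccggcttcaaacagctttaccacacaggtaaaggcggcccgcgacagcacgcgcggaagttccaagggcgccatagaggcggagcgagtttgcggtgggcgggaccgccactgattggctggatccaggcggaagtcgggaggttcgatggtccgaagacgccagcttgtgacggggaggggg
The first 3 of these genes rose and Parp11 fell. Fam178b had 6.47, 4.68 and 5.98 CPM in the parental cells against 45.5, 47.6 and 40.7 CPM in the MITF KO. Asb2, which targets filamins for degradation, had 3.54, 2.82 and 3.78 CPM in the parental cells against 27.1, 30.00 and 29.1 CPM in the MITF KO. Elovl4, which elongates very long fatty acids, had 0.0863, 0.227 and 0 CPM in the parental cells against 4.802, 4.699 and 5.94 CPM in the MITF KO. Parp11 had 104, 107 and 108 CPM in the parental cells against 19.9, 23.9 and 20.1 CPM in the MITF KO.

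Few DEGs lay in stretches of the genome that moved as a whole. Running medians over 100 neighbouring genes on mm39 passed 0.3 (log2) from that of all genes for 297 of 9383 genes, 3.17%, and 16 of the 506 DEGs with such a window lay there. The 4 stretches of 20 or more genes were on chromosomes 2, 12 and 17, and the 88 genes from 31379323 to 72846593 of chromosome 12, which hold Pole2 and Nampt, had a median of -0.38.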

How the data were processed

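Gene expression was measured in 8 B16-F10 lines with 3 libraries each by QuantSeq Forward 3′-end sequencing of total RNA. Per the methods and the submitters' processing notes, the authors trimmed reads with Trim Galore 0.6.5 and cutadapt 2.10, aligned them to mm39 with STAR 2.7.8a and scaled gene counts with edgeR. The counting tool, its annotation and strand setting and the filter on genes are not given in the sources used here. The deposited values are a signal, CPM divided by TMM factors, whose column totals are not equal (933263 to 1.08108e+06 per library), which differs from the plain CPM that the test design assumed. Each value is a whole multiple of what 1 read is worth: 99.8605% of values came out whole within 0.01 of a read, and at least 99.7086% in each library, so that reads and depth were recovered. The parental libraries held 22707913 to 23635288 reads and the MITF KO libraries 18300902 to 25067748. No 2 replicates agreed within sampling noise (lowest chi-square per degree of freedom 5.97).

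The main test was limma 3.58.1 with a trend (R 4.3.3) on log2(CPM + 1), fitted once on all 24 libraries grouped by their labels, with 16 residual degrees of freedom and Benjamini-Hochberg adjustment over 12010 genes. A fold change is on this scale and understates the change of low genes. DEGs passed a log2 fold change of 1 and an unadjusted p under 0.05. The difference between MITF loss with and without TFEB and TFE3 was an interaction in the same fit. edgeR 4.0.16 was run on the recovered reads as an alternative, beside other pseudocounts, filters and scalings and each library left out. Named genes were those of a fixed set, up to 3 members of each list with the largest change, the 10 largest rises and falls of at least 5 CPM, up to 5 genes in each direction of the interaction, up to 8 genes on in one line only, and up to 4 printed promoters. Some genes of the set are not reported here. Genes outside this rule were chosen after their values were seen, or are named to complete a count. Members and lists were chosen with earlier results of these data known. Gene positions are from GENCODE vM39 on mm39 and promoters from RefSeq on GRCm38.p6. The procedures were tested on simulated data. The same replicate numbers in the labels were not taken to pair samples in the main test. Correlations of same-numbered deviations were -0.0707, 0.37 and 0.294, against a mean of -0.103 for differently numbered libraries. A replicate block was therefore fitted as an alternative.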

Additional observations from a re-analysis of the deposited data

Results flagged for a closer look

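Differences between the loss of MITF with TFEB and TFE3 present (MITF KO against parental) and without them (TKO against TFEB/TFE3 DKO) are given here on the log2 scale, as the former minus the latter, from the interaction in limma. Of 12010 genes, 1754 passed a difference of at least 1 and an adjusted p under 0.05. The following values all passed.

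Among genes of the MITF family and pigment, the differences were 2.23 for Mitf, 1.55 for Tfeb, 3.68 for Tyr, 1.83 for Tyrp1, 1.40 for Dct, 2.76 for Pmel, 1.22 for Mlana, 1.27 for Gpr143, 2.82 for Slc45a2, 2.36 for Mc1r and 4.51 for Trpm1. Mlana and Gpr143 fell in both comparisons and fell by more in the TKO (-1.93 and -2.41). The Tfeb transcript is itself edited in the lines without TFEB.

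Among receptors and metabolic genes they were 2.67 for Met, 1.89 for Ngfr, -1.30 for Axl, 1.77 for Hk2, 1.50 for Scd1, 3.97 for Ppargc1a, 1.75 for Sesn2, 1.42 for Deptor, 1.54 for Rragd, 4.12 for Trib3, 3.59 for Chac1 and 4.40 for Mgll. Axl fell in the MITF KO and had 0.12 in the TKO comparison.

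For the interferon-induced genes the value was lower in the MITF KO comparison. The differences were -1.42 for Apol9b, -1.74 for Apol9a, -1.50 for Ifi44, -4.29 for Cxcl10, -3.21 for Ifi203, -1.99 for Mndal, -1.53 for Usp18, -3.54 for Isg15, -1.38 for Iigp1, -1.79 for Rtp4, -2.40 for Ifit3 and -4.11 for Gbp2. For genes at or near 0 reads in the MITF KO, such as Ifi44 and Apol9a, the fitted value depends on the pseudocount.

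Of the remaining genes, Tagln2 differed by 2.29, Bcan by 2.05, Rny3 by -1.13, Dbh by -2.11, Casq2 by -1.65, Myom1 by -1.30, Slc9b1 by -5.02, Acta2 by -4.72, 2210016F16Rik by -4.36 and 1700019D03Rik by 4.13. Slc9b1 and Acta2 rose in the TKO comparison by 3.70 and 6.34, and 2210016F16Rik had -0.04 there.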

How the results depend on the processing

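Counts of genes moved most with the pseudocount and with edgeR. With edgeR on whole reads, 726 genes were upregulated and 551 downregulated, with a pseudocount of 0.25 641 were upregulated, with a pseudocount of 5 158 and 208, and with a mean of at least 5 CPM 254 were upregulated. The interaction called 946 genes with a pseudocount of 5, and 156 of the DEGs, against 562 of the DEGs with a pseudocount of 0.25. Shared upregulated genes numbered 409, 358 and 85 for the TKO comparison with edgeR and with pseudocounts of 0.25 and 5, 424, 360 and 77 for the pair without TFE3, 438, 374 and 89 for the pair without TFEB, and 261, 219 and 49 in all 4 pairs. Shared downregulated genes numbered 146 for the TKO comparison with a pseudocount of 5. They numbered 185, 170 and 52 for the pair without TFE3, and 66 with a mean of at least 5 CPM, 225, 206 and 77 for the pair without TFEB, and 126 with edgeR and 45 with a pseudocount of 5 in all 4 pairs. Genes off in the MITF KO numbered 9 with a limit of 1 read and 29 with a limit of 10 reads.

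Without each library in turn, 388 to 424 genes were upregulated and 341 to 398 downregulated, 2002 to 2144 rose and 1739 to 1858 fell, and the interaction called 1609 to 1836 genes and 342 to 383 of the DEGs. Shared genes were 210 to 229 up and 226 to 233 down for the TKO comparison, 195 to 208 and 100 to 106 for the pair without TFE3, 211 to 226 and 135 to 142 for the pair without TFEB, and 120 to 127 and 76 to 80 in all 4 pairs. A replicate block for the shared numbers left the counts of DEGs as they were, and 2421 genes rose and 2172 fell. Of 2453 refitted fold changes of the named genes, 60 lost their call, and no call turned its direction. Among the 60 was Dct, which quantile normalization sets equal in all libraries. The interaction changed its sign under edgeR for Notch1 (3.21) and Ankrd1 (0.46), and the cause was not tested. Genes at 0 reads in a line limit the precision of a fold to a bound.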
